A study of Homo sapiens with 4 samples.

Results

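The machinery of endoplasmic reticulum (ER)-associated degradation (ERAD) was examined in SKBR3 cells with and without raised VIRMA. It was taken as 10 genes chosen by name, which are 10 of the 56271 rows of the count table. They are the HRD1 complex genes SEL1L, SYVN1, HERPUD1 and OS9, the derlins DERL1, DERL2 and DERL3, and the EDEM genes EDEM1, EDEM2 and EDEM3. Each symbol matched 1 row, and 9 of the 10 genes were expressed above the minimum used for testing, the exception being DERL3.

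SKBR3 is an established breast cancer line with amplified HER2, and VIRMA is a scaffold subunit of the complex that writes N6-methyladenosine on RNA. Poly-A RNA was sequenced from 2 libraries of cells transduced with eGFP alone (eGFP control) and 2 libraries of VIRMA-overexpressing cells. The latter carried a lentiviral construct of full-length, HA-tagged VIRMA, in which a p2A sequence separates eGFP from VIRMA. Both groups were eGFP-positive populations sorted and expanded after transduction, not single clones, and the study calls the libraries biological duplicates. A difference between the 2 sorted populations that arose during sorting or expansion cannot be told apart from the VIRMA transgene. The culture notes on all 4 libraries mention a hypoxia chamber whereas the study describes the sequencing without one, so the oxygen level is uncertain, and it is given alike for both groups.

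ERAD removes proteins that fail to fold in the ER. Mannosidases of the EDEM family trim the sugar of a misfolded glycoprotein, lectins such as OS9 read the trimmed sugar, and SEL1L hands the protein to the ubiquitin ligase HRD1, encoded by SYVN1. The protein then crosses the membrane through a channel that HRD1 forms with a derlin, is ubiquitinated on the cytosolic face, is pulled out by the ATPase VCP and is degraded by the proteasome. Many of these genes are classical targets of the unfolded protein response, in which the transcription factors ATF6 and XBP1 bind promoter elements named ERSE, ERSE-II and UPRE, and ATF4 binds composite elements together with C/EBP proteins.

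The promoters of the 3 members that rose by more than 2-fold are shown because HERPUD1, which rose most, holds exact matches to ERSE-II and to the ATF4 composite core and SEL1L and EDEM1 hold neither. Each sequence is a RefSeq window on GRCh38.p14 that runs from 250 bases before to 50 bases after the RefSeq start of the gene, written 5′ to 3′ on the strand of the gene. HERPUD1 is chr16:56931892-56932191 on the plus strand, SEL1L is chr14:81533804-81534103 on the minus strand and EDEM1 is chr3:5187457-5187756 on the plus strand. In HERPUD1 the capitals mark the ATF4 composite core, on the opposite strand, and then the ERSE-II match. In SEL1L and EDEM1 they mark CCACG, the block at the end of ERSE and ERSE-II, which in these windows lies on the opposite strand.
HERPUD1: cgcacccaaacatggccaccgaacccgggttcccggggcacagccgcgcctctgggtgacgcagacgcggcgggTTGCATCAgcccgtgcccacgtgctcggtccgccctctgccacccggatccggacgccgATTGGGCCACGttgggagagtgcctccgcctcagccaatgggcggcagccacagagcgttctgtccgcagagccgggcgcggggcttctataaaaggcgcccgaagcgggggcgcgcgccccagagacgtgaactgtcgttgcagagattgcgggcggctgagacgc
SEL1L: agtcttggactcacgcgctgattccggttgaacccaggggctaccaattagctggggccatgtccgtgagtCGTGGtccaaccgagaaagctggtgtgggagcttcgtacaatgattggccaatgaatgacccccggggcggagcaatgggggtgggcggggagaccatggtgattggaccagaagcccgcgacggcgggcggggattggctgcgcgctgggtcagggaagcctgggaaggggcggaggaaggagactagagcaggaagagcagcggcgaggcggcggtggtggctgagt
EDEM1: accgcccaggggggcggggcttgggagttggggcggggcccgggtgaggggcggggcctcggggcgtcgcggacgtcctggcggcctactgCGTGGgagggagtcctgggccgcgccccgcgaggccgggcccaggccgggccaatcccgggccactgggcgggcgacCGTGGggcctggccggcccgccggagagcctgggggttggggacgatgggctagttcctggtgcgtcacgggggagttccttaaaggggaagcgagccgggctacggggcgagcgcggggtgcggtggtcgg

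Counting the base before the RefSeq start as -1, the ERSE-II match of HERPUD1 (ATTGGNCCACG) ran from -117 to -107 and the ATF4 composite core (TGATGNAA) from -176 to -169. Both strands were searched for exact letters in the windows of the 8 members found in the RefSeq table, which are all but DERL1 and DERL3. ERSE-II was found in 1 of the 8, against 0.0549% of 27305 promoter windows, and the ATF4 core in 1 of the 8, against 3.67%. ERSE (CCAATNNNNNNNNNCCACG, in 0.0806% of windows) and UPRE (TGACGTGG, in 0.795%) were found in none of the 8. CCACG, which is part of ERSE and ERSE-II and is shared by 37.9% of all windows, was found in 6 of the 8. The shares cover all windows, whether or not the gene was tested here, whereas the 8 members were all tested. The ATF4 core was in 1003 windows, and 114 tested genes matched these by symbol. The shares are given for scale without a test, and genes in which an element was first described were not left out. A match describes letters only, binding was not measured, and a window without a match says nothing of elements elsewhere in the gene.

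Sequencing depth was close in the 4 libraries, with 81446932 to 86375474 counts per library. Scaling factors from the trimmed mean of M values (TMM) were 0.969 to 1.03, and mitochondrial genes accounted for 11.4% to 11.6% of counts in the controls and for 12.8% after VIRMA overexpression. VIRMA, listed under its older symbol KIAA1429, had counts of 710 and 682 in the eGFP controls against 3437 and 3460 after overexpression, so the counts were higher in the libraries labelled as overexpressing. The log2 fold change was 2.29 (edgeR adjusted p = 9.74e-26, SE 0.0685), but with 0.775 RPKM in the controls VIRMA passed the expression minimum of 1 RPKM only through the group where it was high. ERBB2, the gene of HER2, was high in all 4 libraries, at 680 RPKM (CPM per kilobase of exon, with CPM a count rescaled by the TMM-adjusted library total) in the controls and 679 RPKM in the VIRMA-overexpressing cells.

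As a whole, the ERAD members were higher in VIRMA-overexpressing cells. Of the 9 tested members, 8 rose and 1 fell at an edgeR adjusted p below 0.05, and 3 (HERPUD1, SEL1L and EDEM1) rose by more than 2-fold. The background is wide in this comparison, since 35.1% of the 12205 tested genes were called higher and 35.9% lower, while 4.52% were called higher past 2-fold. The median log2 fold change was 0.80 over the 9 tested members and 0.01 over all tested genes. All 9 tested members had more than 1 RPKM in each of the 4 libraries, so none passed the expression minimum through 1 group alone. Their 2 control and 2 VIRMA-overexpressing libraries did not overlap in any of the 9, which also held for 84.3% of all tested genes. The largest difference between replicates of a tested member was 0.12 on the log2 scale, in EDEM1, and the smallest change between groups was 0.0986, in DERL1. An exact permutation test of 2 libraries against 2 cannot give a two-sided p below 0.333, so each test below rests on the spread that edgeR shares across genes.

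**Figure D1:**
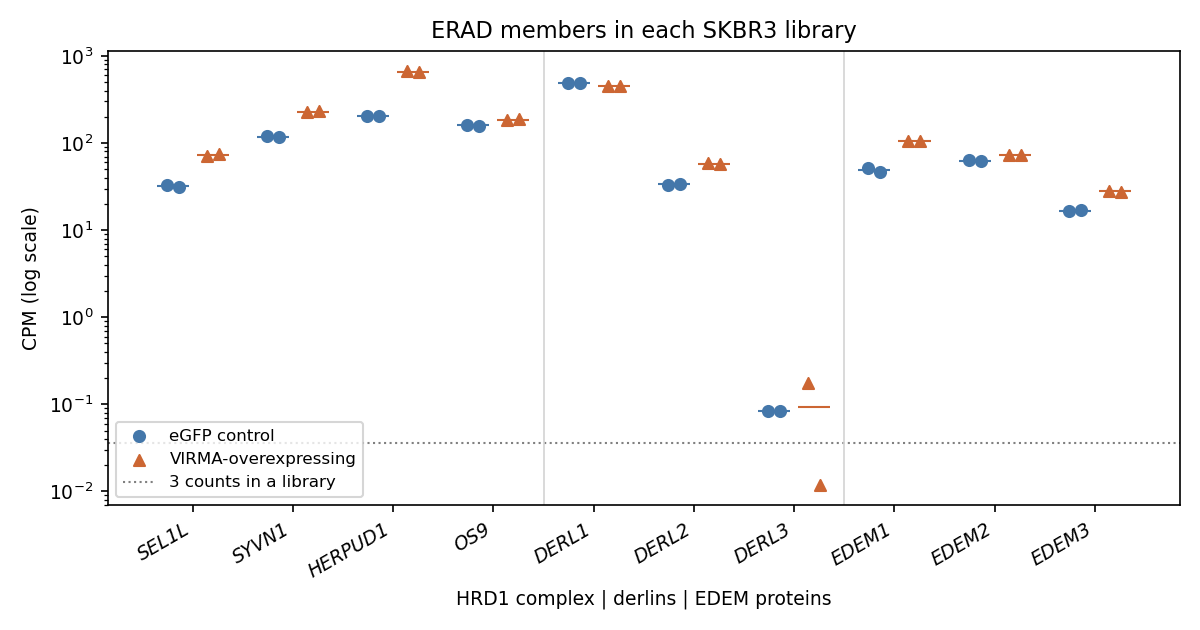
CPM (log scale) of the 10 ERAD members in each library, with circles for the eGFP control, triangles for VIRMA-overexpressing cells, short lines for group means and a dotted line at 3 counts in a library. HERPUD1 stands furthest apart between the groups, from about 204 to 661 CPM, and DERL3 lies near the count limit with overlapping groups.

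SYVN1 encodes the HRD1 ligase itself, a multi-pass membrane protein with a cytosolic RING domain. Its CPM values were 119.1 and 118.0 in the eGFP cells against 224.5 and 230.5 in the VIRMA-overexpressing libraries. Both VIRMA-overexpressing libraries were well above both controls. The log2 fold change was 0.94 (edgeR adjusted p = 8.96e-24, SE 0.0328), a rise of 1.92-fold that stayed just under the 2-fold line. The SYVN1 row (GRCh38 chromosome 11, 65121780 to 65134533, minus strand) shares 398 exonic bases, 7.24% of its length, with FAU on the same strand and 356 with MRPL49 on the opposite strand. FAU had 48148 and 46938 counts in the eGFP cells against 44889 and 42095 in the VIRMA-overexpressing libraries. The part of reads from the shared bases in the SYVN1 values was not tested.

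SEL1L encodes the single-pass partner that stabilises HRD1 and links it to the lumenal lectins. Its CPM values were 32.9 and 31.1 in the controls and 70.9 and 74.9 after VIRMA overexpression. The groups were clearly separated. A log2 fold change of 1.19 (edgeR adjusted p = 4.08e-22, SE 0.0471) was a rise of 2.28-fold, larger than in 97% of tested genes. SEL1L lies on chromosome 14 (GRCh38, 81471549 to 81533861, minus strand) and was much the less abundant transcript of the pair, with 3.35 ± 0.14 RPKM in the controls (SD, n = 2) against 21.6 ± 0.14 for SYVN1. The ratio of SEL1L to SYVN1 RPKM was 0.159 and 0.151 in the control libraries and 0.182 and 0.187 in the VIRMA-overexpressing libraries. SEL1L stayed far below SYVN1 on the RPKM scale in every library, with a higher ratio in both VIRMA-overexpressing libraries.

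HERPUD1 encodes a short-lived ER membrane protein with a ubiquitin-like domain that joins the HRD1 complex. Its CPM values rose from 205.7 and 202.7 in the controls to 663.6 and 658.2 in the VIRMA-overexpressing libraries. The replicates were close together and the groups far apart. This was the largest change among the members, a log2 fold change of 1.69 (edgeR adjusted p = 8.49e-33, SE 0.0296) or 3.24-fold, and it exceeded that of 99% of tested genes. HERPUD1, on chromosome 16 (GRCh38, 56932048 to 56944863, plus strand), is the member whose promoter holds the ERSE-II and ATF4 core matches printed above. The ratio of HERPUD1 to SYVN1 RPKM was 1.84 and 1.83 in the eGFP cells against 3.15 and 3.04 in the VIRMA-overexpressing libraries, so its transcript gained on that of the ligase.

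OS9 encodes a lumenal lectin that binds trimmed mannose chains and presents its cargo to SEL1L. It had 161.6 and 158.3 CPM in the controls and 185.1 and 186.9 CPM in the VIRMA-overexpressing libraries. The groups did not overlap, but the shift was small. OS9 changed by 0.22 on the log2 scale (edgeR adjusted p = 2.77e-07, SE 0.0323), or 1.16-fold, above 65.8% of tested genes. ERLEC1, which encodes the other lectin of the complex, rose more, with 35.0 and 34.7 CPM in the controls and 51.3 and 52.8 CPM in the VIRMA-overexpressing libraries (log2 fold change 0.58, edgeR adjusted p = 4.46e-13, SE 0.0480). The ratio of OS9 to ERLEC1 RPKM went from 2.32 and 2.29 to 1.81 and 1.77, with OS9 the more abundant in every library. OS9 lies on chromosome 12 (GRCh38, 57693955 to 57721557, plus strand), where the median log2 fold change of 21 tested genes within 500 kb was 0.23, much the same as its own.

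**Figure D2:**
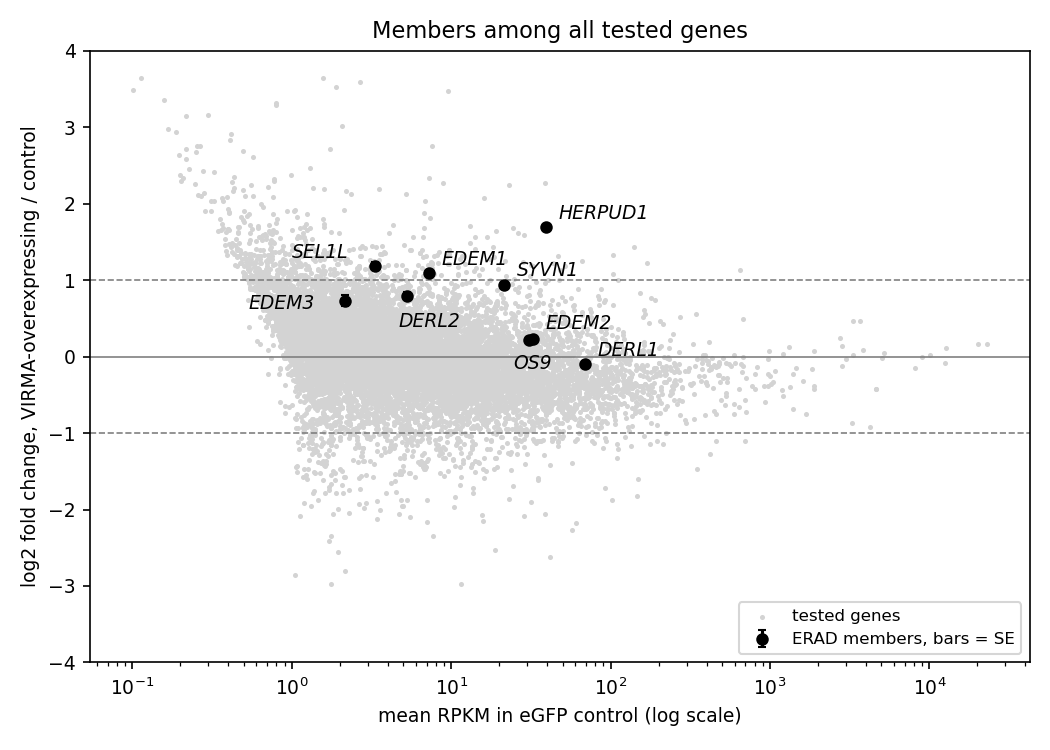
Log2 fold change of VIRMA-overexpressing cells against eGFP control (vertical) and mean control RPKM (horizontal, log scale) for the 9 tested members (black, bars are SE) and all tested genes (grey), with dashed lines at 2-fold and 15 genes outside the plotted range. HERPUD1 at 1.69, SEL1L at 1.19 and EDEM1 at 1.09 lie above the 2-fold line, and DERL1 at -0.0986 is the only member below 0.

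The derlins are rhomboid-like proteins without protease activity that thin the membrane beside HRD1, and of the 3 paralogs 1 rose, 1 fell and 1 was too low to test. DERL2, which rose, had 33.3 and 33.7 CPM in the controls and 58.3 and 58.0 CPM in the VIRMA-overexpressing libraries, with groups far apart relative to the replicates. Its change was 0.80 on the log2 scale (edgeR adjusted p = 3.98e-17, SE 0.0470), a 1.74-fold rise. The DERL2 row (GRCh38 chromosome 17, 5471251 to 5486811, minus strand) shares 301 exonic bases with MIS12 on the opposite strand. MIS12 also had more counts in the VIRMA-overexpressing libraries, 1555 and 1277 against 714 and 675. Whether the counting used strand is not stated, and the part of these reads in the DERL2 change was not tested.

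DERL1, the most abundant derlin, was close to level. It had 484.7 and 490.8 CPM in the controls and 457.3 and 453.8 CPM in the VIRMA-overexpressing libraries, which were both slightly below the controls. It fell by 0.0986 on the log2 scale (edgeR adjusted p = 0.00248, SE 0.0284), or to 0.934 of the control level. This call was lost with upper-quartile scaling (log2 fold change -0.0271, edgeR adjusted p = 0.397) and with library totals alone (-0.0151, adjusted p = 0.643), which raise the median of all genes by 0.0715 and 0.0835. It was lost as well without VIRMA-overexpressing replicate 1 (-0.076, edgeR adjusted p = 0.0803) or without replicate 2 of that group (-0.0626, adjusted p = 0.144). DERL1 lies on chromosome 8 (GRCh38, 123013164 to 123042423, minus strand), where the median log2 fold change of 15 tested genes within 500 kb was -0.13.

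DERL3, the paralog of secretory tissues such as pancreas, was barely detected. It had 7 and 7 counts in the control libraries and 15 and 1 in the VIRMA-overexpressing libraries. The groups overlap, and the 2 VIRMA-overexpressing libraries lay on either side of the controls. With all rows kept, its log2 fold change was 0.12 (edgeR adjusted p = 0.959, SE 1.18), so no difference was detectable at this depth. DERL3 (GRCh38 chromosome 22, 23834503 to 23839128, minus strand) was the only member under 1 RPKM.

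Summed over the 3 derlins, the level was 73.7 and 74.6 RPKM in the controls and 73.7 and 73.2 RPKM in the VIRMA-overexpressing libraries, so the groups overlapped in the family total on this scale, which shifts with the scaling as DERL1 does, while its make-up differed. DERL2 contributed 7.07% of the derlin RPKM in each control and 12.4% in each VIRMA-overexpressing library. DERL1 went from 92.9% to 87.6%. The ratio of DERL2 to DERL1 RPKM was accordingly 0.0761 in both controls, against 0.141 and 0.142 with VIRMA overexpressed.

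The EDEM proteins are related to mannosidases and remove mannose from the sugars of misfolded glycoproteins. EDEM1 had 51.2 and 47.1 CPM in the controls and 104.2 and 104.5 CPM in the VIRMA-overexpressing libraries. The controls differed from each other more than the VIRMA-overexpressing libraries did, yet lay far below them. EDEM1 had a log2 fold change of 1.09 (edgeR adjusted p = 1.70e-22, SE 0.0418), a 2.12-fold rise. EDEM1 is on chromosome 3 (GRCh38, 5187646 to 5219957, plus strand). Tested against 2-fold itself, its rise did not pass (edgeR adjusted p = 0.154), whereas those of HERPUD1 (adjusted p = 9.89e-22) and SEL1L (adjusted p = 0.00134) did.

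EDEM2 makes the first cut of the mannose chain, together with the disulfide partner TXNDC11. It had 63.9 and 62.1 CPM in the controls and 73.8 and 73.7 CPM in the VIRMA-overexpressing libraries. The groups did not overlap, and the step was small beside that of EDEM1. EDEM2 changed by 0.23 on the log2 scale (edgeR adjusted p = 5.97e-06, SE 0.0402), or 1.17-fold. Its partner TXNDC11 changed by a like amount, with 53.1 and 53.7 CPM in the controls and 60.0 and 60.6 CPM in the VIRMA-overexpressing libraries (log2 fold change 0.18, edgeR adjusted p = 0.000454, SE 0.0428). EDEM2 lies on chromosome 20 (GRCh38, 35115357 to 35147364, minus strand).

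EDEM3, which trims further mannoses, was the least abundant EDEM gene, with 2.14 ± 0.018 RPKM in the controls (SD, n = 2). It had 16.6 and 16.8 CPM in the controls and 28.1 and 27.6 CPM in the VIRMA-overexpressing libraries, both of the latter above the controls. Its log2 fold change came to 0.73 (edgeR adjusted p = 3.48e-12, SE 0.0658), a 1.66-fold rise. EDEM3 is on chromosome 1 (GRCh38, 184690231 to 184754913, minus strand).

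The EDEM family differed from the derlins in that its total rose, from 43.0 and 41.5 RPKM in the controls to 57.5 and 57.4 RPKM in the VIRMA-overexpressing libraries. EDEM2 made up 77.4% and 78.0% of the EDEM RPKM in the controls and 66.9% in each VIRMA-overexpressing library. EDEM1 gained, from 17.6% and 16.8% to 26.8% and 27.0%. The ratio of EDEM2 to EDEM1 RPKM fell from 4.39 and 4.64 to 2.49 and 2.48. These shares and ratios rest on listed exonic lengths of 1919 bases for EDEM2, 6758 for EDEM1 and 7804 for EDEM3. In mean CPM, EDEM2 had 63.0 and EDEM1 49.1 in the controls, against 73.7 and 104.4 in the VIRMA-overexpressing libraries. The ratio of EDEM3 to EDEM1 RPKM was 0.281 and 0.309 in the eGFP cells against 0.233 and 0.228 in the VIRMA-overexpressing libraries, so EDEM3 rose but less than EDEM1. The 6 ratios between members or their partners are given as values without a test. None overlapped between the groups, which is the usual state here, as 84.3% of single tested genes did not overlap either.

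**Figure D3:**
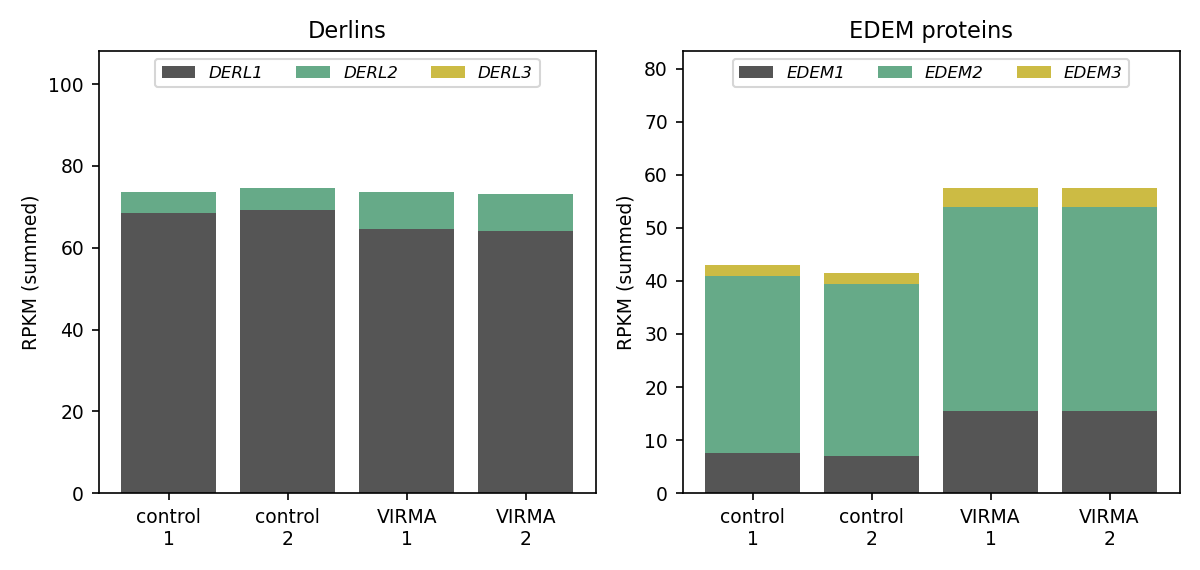
RPKM summed over the derlins (left) and the EDEM genes (right) in each library, with the share of each gene stacked from 0. The derlin total stays between 73.2 and 74.6 RPKM while the share of DERL2 grows, and the EDEM total grows from about 42 to 57 RPKM with most of the gain in EDEM1.

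Per kilobase of exon, the order of the members in the controls was DERL1 (68.9 RPKM), HERPUD1 (39.6 RPKM), EDEM2 (32.8 RPKM), OS9 (31.0 RPKM), SYVN1 (21.6 RPKM), EDEM1 (7.27 RPKM), DERL2 (5.24 RPKM), SEL1L (3.35 RPKM), EDEM3 (2.14 RPKM) and DERL3 (0.022 RPKM). In the VIRMA-overexpressing cells HERPUD1 moved to the top with 128.2 RPKM, above DERL1 with 64.3 RPKM. SYVN1 (41.4 RPKM) passed EDEM2 (38.4 RPKM) and OS9 (36.0 RPKM), and the places from EDEM1 downward were the same. In the 18 pairs of neighbours in these orders, the 2 libraries of one gene never overlapped those of the next. The 3 highest tested members after DERL1 and HERPUD1 in the controls split, since SYVN1 rose by 1.92-fold, EDEM2 by 1.17-fold and OS9 by 1.16-fold. RPKM uses the exonic length given for each row, 1919 bases for EDEM2 and 5155 to 9559 bases for the other 8 tested members, so a gene whose SKBR3 transcripts use few of the listed exons has an RPKM that is too low.

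The members were also set beside their neighbours on the chromosome. Within 500 kb, the median log2 fold change was -0.26 for 2 tested genes around SEL1L, -0.14 for 37 around SYVN1, 0.037 for 19 around HERPUD1, 0.21 for 14 around DERL2, 0.074 for 3 around EDEM1, -0.063 for 21 around EDEM2 and 0.013 for 3 around EDEM3. Each of these 7 members lay above the median of its neighbours, by least for EDEM2. The remaining tested members, given above, lay close to theirs. OS9 was slightly below, at 0.217 against 0.230, and DERL1 slightly above, at -0.0986 against -0.127.

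Other genes of the pathway moved in both directions. Of 66 listed, 64 were tested, of which 32 rose (50%) and 19 fell (29.7%), against 35.1% and 35.9% of all tested genes. By more than 2-fold 5 rose (7.81%, against 4.52% of all tested genes) and none fell. The median log2 fold change over the 64 was 0.093. In the ER lumen, where the substrates of the HRD1 complex are held and trimmed, all 11 listed genes rose. The 4 that passed 2-fold were HSPA5, the chaperone BiP (log2 fold change 1.43, edgeR adjusted p = 3.78e-32, SE 0.0262), DNAJB9, its J-domain partner ERdj4 (1.34), DNAJC10, the reductase ERdj5 that works with EDEM1 (1.23), and HSP90B1, the chaperone GRP94 (1.08). The smallest rise there was that of MAN1B1, a mannosidase that acts beside the EDEM proteins, at 0.095.

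Of 15 other cofactors of HRD1 or of ERAD at the ER membrane, a list that includes the lectin ERLEC1, 9 rose (60%) and 3 fell (20%). Among all tested genes 35.1% were called higher and 35.9% lower. Not all of the 15 belong to the HRD1 complex. RHBDD1, an ER rhomboid protease related to the derlins, was the one past 2-fold (log2 fold change 1.15, edgeR adjusted p = 2.62e-12, SE 0.102), with 5.65 and 5.85 CPM in the controls and 12.6 and 13.0 CPM in the VIRMA-overexpressing libraries. Its control level of 0.831 RPKM was under the expression minimum, so RHBDD1 was tested only through the group where it was high. The largest fall was that of TMUB1, a ubiquitin-like membrane protein (-0.46, edgeR adjusted p = 1.45e-11). Among 10 tested ER membrane ligases other than HRD1, 5 rose (50%) and 3 fell (30%, near the share among all tested genes). They ranged from MARCHF6, the human Doa10 (0.68, edgeR adjusted p = 3.45e-20), whose symbol appears as a date in the table, to RNF145 (-0.24, adjusted p = 5.64e-06). RNFT1 in this list passed the minimum only through the VIRMA-overexpressing group, with 0.749 RPKM in the controls.

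On the cytosolic side the direction was mixed or downward, beside 35.1% higher and 35.9% lower among all tested genes. Ubiquitin-conjugating and chain-elongating enzymes split into 4 higher and 4 lower of 8. UBE2J1, the conjugating enzyme that serves HRD1, had the largest rise (log2 fold change 0.67, edgeR adjusted p = 1.25e-15, SE 0.0445), and UBE4B the largest fall (-0.49, adjusted p = 9.27e-10). Of VCP and its 5 listed cofactors none rose and 4 fell, VCP itself from 321 and 316 CPM to 226 and 220 CPM (-0.52, edgeR adjusted p = 5.85e-17, SE 0.0308), its recruiting factor UFD1 by a log2 fold change of -0.55 and its inhibitor SVIP by -0.71. Of 14 tested deubiquitinases, glycanase and shuttle factors 3 rose (21.4%) and 5 fell (35.7%, near the share among all tested genes). They ranged from USP25 (0.62, edgeR adjusted p = 2.15e-10) to UBL4A (-0.86, adjusted p = 6.69e-20).

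**Figure D4:**
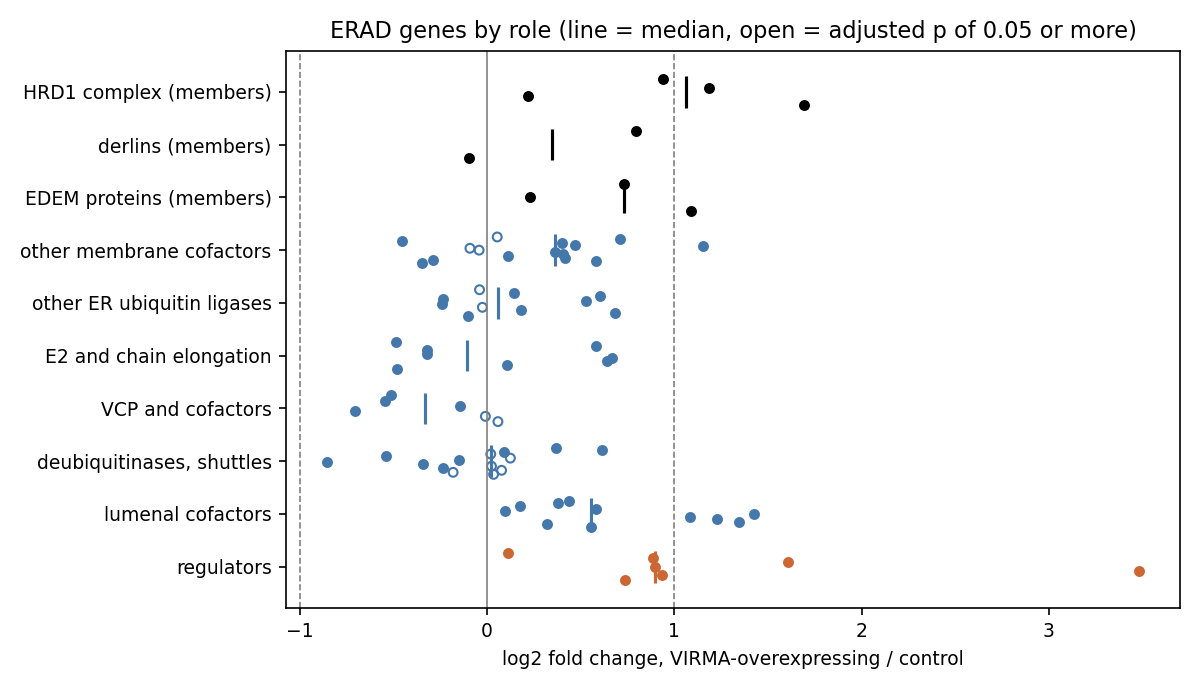
Log2 fold change (horizontal) of the tested members (black), other ERAD genes by role (blue) and regulators (orange), with filled points for an edgeR adjusted p below 0.05, a short line for each list median and dashed lines at 2-fold. Lumenal cofactors and regulators lie above 0 as the HRD1 and EDEM members do, and VCP and its cofactors lie at or below 0.06.

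Paralogs that are not part of ERAD gave another reference for the members. Of 8 listed, 5 were tested, of which 2 rose (40%) and 1 fell (20%), against 35.1% and 35.9% of all tested genes. MAN1C1, a Golgi mannosidase of the EDEM enzyme family, changed by 0.36 (edgeR adjusted p = 0.000942) and RHBDD2, a rhomboid-like relative of the derlins, by -0.42 (adjusted p = 5.17e-12). SEL1L2 had 0 counts in 3 libraries and 1 count in the other, a VIRMA-overexpressing one.

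All 7 listed regulators rose, against 35.1% of all tested genes. DDIT3, which encodes CHOP, changed most, from 12.0 and 12.4 CPM to 135.9 and 135.9 CPM (log2 fold change 3.48, edgeR adjusted p = 3.20e-36, SE 0.0462). ERN1, the sensor IRE1, had a log2 fold change of 1.61 and ATF6 of 0.94. The values were 0.89 for EIF2AK3, the sensor PERK, 0.88 for NFE2L1, a factor for proteasome genes, and 0.73 for ATF4. XBP1 rose least, by 0.11 (edgeR adjusted p = 0.000441), with 701 and 708 CPM in the controls and 760 and 761 CPM in the VIRMA-overexpressing libraries. Gene counts do not separate spliced from unspliced XBP1 RNA, and they do not show the cleaved form of ATF6.

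Marker genes also differed between the groups in which the members moved. The 6 markers of SKBR3 cells summed to 26259 and 25824 CPM in the controls and 23351 and 23522 CPM in the VIRMA-overexpressing libraries. They did not move together, as 2 were called higher, 3 lower and 1 neither, beside 35.1% higher and 35.9% lower among all tested genes. KRT8 had the largest fall, from a control mean of 8287 to 5817 CPM, while GRB7 rose from 768 to 1034 CPM. ERBB2 was level, at 7016 and 7010 CPM. ESR1, PGR and CDH1, which these cells lack, summed to at most 0.921 CPM. Of 10 hypoxia markers 7 were tested, of which 1 rose (14.3%, VEGFA, 1.28) and 5 fell (71.4%, ADM most, -1.29). The 10 summed to 1982 and 2016 CPM in the controls and 1628 and 1636 CPM in the VIRMA-overexpressing libraries. LDHA alone held 1101 and 1130 CPM of the control sums and 613 and 614 CPM of the others, so the sum does not describe the set. Of 22 markers of blood, fibroblast and endothelial cells, 17 had no library above 1 RPKM and 2 were at 0 in all 4 libraries, with sums of 85.2 and 74.6 CPM against 68.9 and 70.2 CPM. MZB1, a plasma cell marker that is itself an ER cofactor of chaperones, had a log2 fold change of 0.63. The HBB row held 2137 and 1543 counts in the eGFP cells against 0 in both VIRMA-overexpressing libraries. The part of these differences in the member values was not tested, and in bulk RNA a change in the share of some cells cannot be told apart from a change per cell.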

How the data were processed

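Poly-A RNA of 4 SKBR3 libraries, made with a stranded kit, was read in paired ends. The authors trimmed reads with Trimmomatic 0.39, aligned them with STAR 2.5.2a to hg38 and counted them with featureCounts. The deposited table gives raw, unnormalized counts for each gene beside its exon coordinates and exonic length. Strand setting and treatment of multiply aligned reads are not given in the sources used here. The control columns are named as such, and the numbered columns were taken as the only remaining group.

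A gene was tested where 2 or more of 4 libraries exceeded 1 RPKM, computed for this filter from library totals and those exonic lengths. The test was the quasi-likelihood F test in edgeR 4.0.16 (R 4.3.3) with TMM scaling, no block and Benjamini-Hochberg adjustment over 12205 genes. Calls needed an adjusted p below 0.05, with a log2 fold change above 1 as a second rule. Printed CPM and RPKM used TMM-scaled totals, and the SE is the estimate over the root of F. The test was tried on simulated counts. Intervals between 2 libraries of a group cover only the spread of these duplicates. Promoter windows were read from RefSeq, 1 per symbol. The alternatives were DESeq2 1.42.0, limma-voom (limma 3.58.1), other scalings and filters, a replicate block, leaving out each library and a test against 2-fold. The replicate numbers carry no stated pairing.

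The members and gene lists were chosen with earlier results of these data known, so no test over a list is given. All members, VIRMA and the regulators are named. In each other pathway list the genes past 2-fold are named, or else the largest rise and fall, besides promoter or complex partners of members, overlapping genes and markers, which were picked after their values were seen. The 28 rows whose symbols had become dates were kept.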

Additional observations from a re-analysis of the deposited data

How the results depend on the processing

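Every member called higher stayed higher with an adjusted p below 0.05 in all 14 alternatives fitted to it, and the number of members higher was 8 in each. Among all tested genes the share called higher was 35.1% in the main fit, 14.4% with all rows above 0 counts and 41.7% with library totals. Log2 fold changes of HERPUD1 ranged from 1.65 to 1.78, of SEL1L from 1.14 to 1.27, of EDEM1 from 1.02 to 1.17 and of SYVN1 from 0.897 to 1.02. The number past 2-fold was 2 when tested against 2-fold and 4, with SYVN1 added, under upper-quartile scaling or library totals. DERL1 was the one member whose call changed, so the number of members lower was 0 under upper-quartile scaling, 0 with library totals and 0 to 1 when a library was left out. The median over the members was 0.868 with upper-quartile scaling, 0.88 with library totals, 0.753 with edgeR's own filter, 0.762 with all rows above 0 counts, 0.767 with at least 10 counts in every library, and 0.776 to 0.83 when a library was left out. The filters admit more low genes to the table, and the library left alone in its group was assumed to vary like the others. Over all genes, 552 were higher past 2-fold, against 1044, 1137 and 930 under those 3 filters, 189 tested against 2-fold, and 308 and 356 without VIRMA-overexpressing replicate 1 and 2, where fewer genes were tested. With the replicate number as a block, SYVN1 had a log2 fold change of 0.94 and DERL1 of -0.0986, and 541 genes were higher past 2-fold. The deviations of same-numbered libraries correlated at 0.0755 over 2 pairs, which gives no sign of pairing by number but cannot exclude a shared batch. The block changed no call of a member. Counts bound the low end of the list, where DERL3 had at most 15 counts in a library and 3 counts equal 0.035 to 0.0361 CPM.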

Other observations

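Across the other ERAD genes, exact promoter elements were found mostly in the lumenal group. ERSE was found in 4 of the 48 other ERAD genes with a RefSeq window, which were HSPA5, HSP90B1, CALR and CANX, with log2 fold changes of 1.43, 1.08, 0.55 and 0.32. ERSE-II was found in SDF2L1, a lumenal chaperone cofactor, which had 74.0 and 70.8 CPM in the controls and 106.1 and 110.2 CPM in the VIRMA-overexpressing libraries (0.58, edgeR adjusted p = 1.18e-15), a smaller change than in HERPUD1 with the same element. UPRE was found in DNAJC10 (1.23), UBE2J1 (0.67), TXNDC11 (0.18) and VCP (-0.52), which moved in both directions. Of all tested genes, 35.1% were called higher and 35.9% lower, with a median log2 fold change of 0.012. Of the 13 tested genes with ERSE, which include the 4 named above, 11 were called higher and 1 lower, with a median of 0.42. For ERSE-II, 3 of 11 tested genes were called higher and 5 lower, with a median of -0.055. The 11 include HERPUD1 and SDF2L1, both among those called higher, so tested genes with this element moved in both directions. For UPRE the counts were 45 higher and 17 lower of 74, the UPRE genes named above included, with a median of 0.23. For the ATF4 composite core they were 49 higher and 43 lower of 114, HERPUD1 included, with a median of 0.046. These are descriptions of the windows, with no test.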
